A study of Homo sapiens with 12 samples.

Results

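The mitochondrial respiratory chain and ATP synthase are built from 5 protein complexes, and this account follows the nuclear genes that encode their subunits in HT-29, an established line from a human colorectal adenocarcinoma, treated to undergo necroptosis. Complex I passes electrons from NADH to coenzyme Q, complex II passes them from succinate to coenzyme Q, complex III hands them to cytochrome c, complex IV reduces oxygen, and complex V uses the proton gradient to make ATP. Apart from a small set encoded by mitochondrial DNA, which was not analysed here, the subunits are made from nuclear genes, translated in the cytosol and imported. The genes were chosen by name: symbols that start with NDUFA, NDUFB, NDUFC, NDUFS, NDUFV, UQCR, COX4I, COX5, COX6, COX7, COX8 or ATP5, together with SDHA, SDHB, SDHC, SDHD and CYC1, leaving out 7 NDUFAF assembly factors. The rule found 90 genes among 19128 gene symbols: 40 of complex I, 4 of complex II, 10 of complex III, 17 of complex IV and 19 of complex V. Measured values entered the choice only where a symbol had several lines, of which the one with the highest mean was kept. ATP5S, ATP5SL and COX7A2L carry the names of subunits and were placed by name alone, which does not imply that they are subunits. The current symbols of ATP5S and ATP5SL are DMAC2L and DMAC2. These genes remain in the counts of complexes V and IV. NDUFA4 is now counted with complex IV but stands with complex I here. NDUFC2-KCTD14 and ATP5J2-PTCD1 are readthrough entries that share sequence with a neighbouring subunit gene. Under current nomenclature 21 of the 90 genes have another symbol, and the deposited symbols are used throughout.

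The treatment, TBZ, was 20 ng/mL of the cytokine TNFα with 2 µM BV6, a compound that depletes inhibitor-of-apoptosis proteins, and 30 µM zVAD-fmk, a caspase inhibitor. In combination these agents turn TNF signalling towards necroptosis, a lytic death carried out by the pseudokinase MLKL. In the main experiment, HT-29 cells with an shRNA against GFP (shGFP, labelled as having no gene knockdown) or with a lentiviral knockdown of MLKL (shMLKL) received DMSO or TBZ for 5 h, with 2 libraries in each of 4 groups. In an earlier experiment there was 1 library each of parental HT-29 cells under DMSO, parental cells under TBZ for 4 h, shMLKL cells under DMSO and shMLKL cells under TBZ for 12 h. The shMLKL and shGFP cells are separate transduced lines, so any difference between them holds the knockdown together with everything else that separates the lines. The labels do not say whether the 2 libraries of a group came from separate cultures, and p-values therefore measure only the spread between these libraries.

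Values were read as FPKM, fragments per kilobase of transcript scaled to the fragments of the library. This scale allows for transcript length when genes are compared. Comparisons between libraries depended on the scaling, as the counts below show. In the main experiment the depth of the libraries relative to the deepest ranged from 82.9 to 100%, and 9606 to 10047 genes reached 1 FPKM. MLKL stood at 3.95 and 3.89 FPKM in shGFP cells under DMSO and at 1.98 and 2.03 FPKM under TBZ. In shMLKL cells it was 0.606 and 0.545 FPKM under DMSO and 0.651 and 0.395 FPKM under TBZ, below every shGFP library. Of 10 colon epithelium markers, EPCAM lay between 313 and 393 FPKM and CDH1 between 80.5 and 93.0 FPKM, while CDX1, CDX2 and GPA33 stayed under 1 FPKM in all 8 libraries. KRT8 and KRT18 were listed at 0 in 7 of 8 libraries and at 694 and 535 FPKM in the other one, so an exact 0 in this table can be a failed estimate. All 7 fibroblast and endothelium markers stayed under 1 FPKM in every library, as did 4 of 6 leukocyte markers and 4 of 5 markers of other lines. The leukocyte markers summed to between 4.59 and 6.71 FPKM and those of other lines to between 0.628 and 1.27 FPKM, and their part in the results was not tested.

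The promoters of the genes are described before the values because they do not depend on expression. RefSeq promoter windows (GRCh38.p14, 300 bases, from 250 before to 50 after the start) were found for 71 of the 90 genes, 85 windows in all because some genes have more than 1. The core letters of 3 sites for factors known to drive respiratory genes were searched on both strands, each scored on its own so that matches may overlap: GCGCATGC, the core of the NRF1 site, CCGGAAG, the core bound by ETS factors such as GABP, and AAGATGG, the core of the YY1 site. The NRF1 core was present in 17.6% of these windows against 3.05% of all 35116 promoters in the table, the ETS core in 24.7% against 10.3%, and the YY1 core in 22.4% against 5.84%. For complexes I to V in order, the NRF1 core was in 14.0, 66.7, 0, 12.5 and 31.25% of 43, 3, 7, 16 and 16 windows. The ETS core was in 11.6, 66.7, 42.9, 31.25 and 37.5%, and the YY1 core in 20.9, 33.3, 28.6, 6.25 and 37.5%. The ETS share of complex I and the YY1 share of complex IV were near those of all promoters. These are descriptions of letters in the window, and a match is not evidence of binding. The windows of 4 genes follow, with motif matches in capitals, to show promoters with and without these letters. SDHB (complex II, chr1:17053983-17054282, minus strand) and ATP5I (complex V, chr4:674227-674526, minus strand) hold 1 match to each of the 3 motifs. NDUFV2 (chr18:9102449-9102748, plus strand) and NDUFA2 (chr5:140647581-140647880, minus strand) are complex I genes whose windows hold none of these letters. These 2 were picked because their expression stood apart in the comparisons that follow. Windows without these letters were not particular to them, and those of NDUFA10, NDUFA11, NDUFB2 and NDUFB3 hold none either. Whether motifs and expression are related was not tested.
SDHB: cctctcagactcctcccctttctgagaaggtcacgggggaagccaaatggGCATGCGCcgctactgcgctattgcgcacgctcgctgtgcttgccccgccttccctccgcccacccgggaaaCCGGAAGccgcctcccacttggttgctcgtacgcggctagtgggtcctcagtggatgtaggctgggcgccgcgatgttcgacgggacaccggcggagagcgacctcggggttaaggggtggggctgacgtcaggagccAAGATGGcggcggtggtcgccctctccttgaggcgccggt
ATP5I: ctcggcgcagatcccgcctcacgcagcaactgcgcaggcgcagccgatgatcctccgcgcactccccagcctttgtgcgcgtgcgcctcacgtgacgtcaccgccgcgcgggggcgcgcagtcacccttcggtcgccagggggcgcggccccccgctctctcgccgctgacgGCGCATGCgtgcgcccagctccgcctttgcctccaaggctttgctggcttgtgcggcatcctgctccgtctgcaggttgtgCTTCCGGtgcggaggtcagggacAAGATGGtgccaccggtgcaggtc
NDUFV2: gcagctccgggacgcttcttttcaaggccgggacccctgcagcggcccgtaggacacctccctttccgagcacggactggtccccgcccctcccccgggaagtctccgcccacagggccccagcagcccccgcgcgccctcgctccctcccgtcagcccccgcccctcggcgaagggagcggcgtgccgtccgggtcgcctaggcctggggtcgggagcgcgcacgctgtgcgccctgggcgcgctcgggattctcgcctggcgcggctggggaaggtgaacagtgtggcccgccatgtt
NDUFA2: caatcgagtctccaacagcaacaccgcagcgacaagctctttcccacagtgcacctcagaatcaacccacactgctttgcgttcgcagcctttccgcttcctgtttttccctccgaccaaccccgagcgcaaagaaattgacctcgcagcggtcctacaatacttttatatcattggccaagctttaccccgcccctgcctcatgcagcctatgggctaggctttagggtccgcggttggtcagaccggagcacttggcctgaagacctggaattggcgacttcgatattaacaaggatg

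Of the 90 genes, 81 reached a mean of 1 FPKM in at least 1 group and were tested: 39 of complex I, 4 of complex II, 10 of complex III, 11 of complex IV and 17 of complex V. One of them, NDUFC2-KCTD14, passed only through shGFP cells under DMSO, and the other 80 reached 1 FPKM in every group. Averaged over the 8 libraries, the median level was 28.4 FPKM for complex I, 54.1 for complex II, 37.0 for complex III, 127 for complex IV and 72.9 for complex V. The highest gene of each complex was NDUFB9 for complex I at 309 FPKM, SDHD for complex II at 69.8, UQCRH for complex III at 105, COX7B for complex IV at 370 and ATP5E, the epsilon subunit of the F1 head of ATP synthase, for complex V at 485. Subunits of one complex therefore differed widely in transcript level, from 8.22 FPKM for UQCR11 to 105 FPKM for UQCRH within complex III.

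Some complex IV subunits have tissue-specific isoforms, and in each such pair here the widely expressed isoform was the higher one. An entry listed at 0 may be a failed estimate, so these zeros do not show that a gene was not expressed. COX4I1 averaged 153 FPKM, whereas COX4I2, an isoform known from lung and hypoxia, reached at most 0.122 FPKM. Of the muscle isoforms, COX6A2 was listed at 0 in all 8 libraries and COX7A1 reached at most 0.201 FPKM. Of the testis isoforms, COX6B2 was above 0 in all 8 libraries but reached at most 0.25 FPKM, and COX7B2 and COX8C were listed at 0 throughout. NDUFA4L2, a hypoxia-induced relative of NDUFA4, was also listed at 0 in all 8 libraries. The remaining genes that did not pass were ATP5L2, at no more than 0.614 FPKM, and the readthrough ATP5J2-PTCD1, listed at 0. UQCRHL is a near-identical intronless copy of UQCRH, and its values cannot be separated with certainty from those of UQCRH. UQCRHL averaged 89.1 FPKM here. In the earlier experiment it stood at 0.865 and 0.803 FPKM in parental cells under DMSO and TBZ, and at 0.315 and 0.711 FPKM in shMLKL cells. UQCRH stood there at 262, 253, 277 and 213 FPKM in the same order. How reads were split between the 2 genes was not tested.

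**Figure D1:**
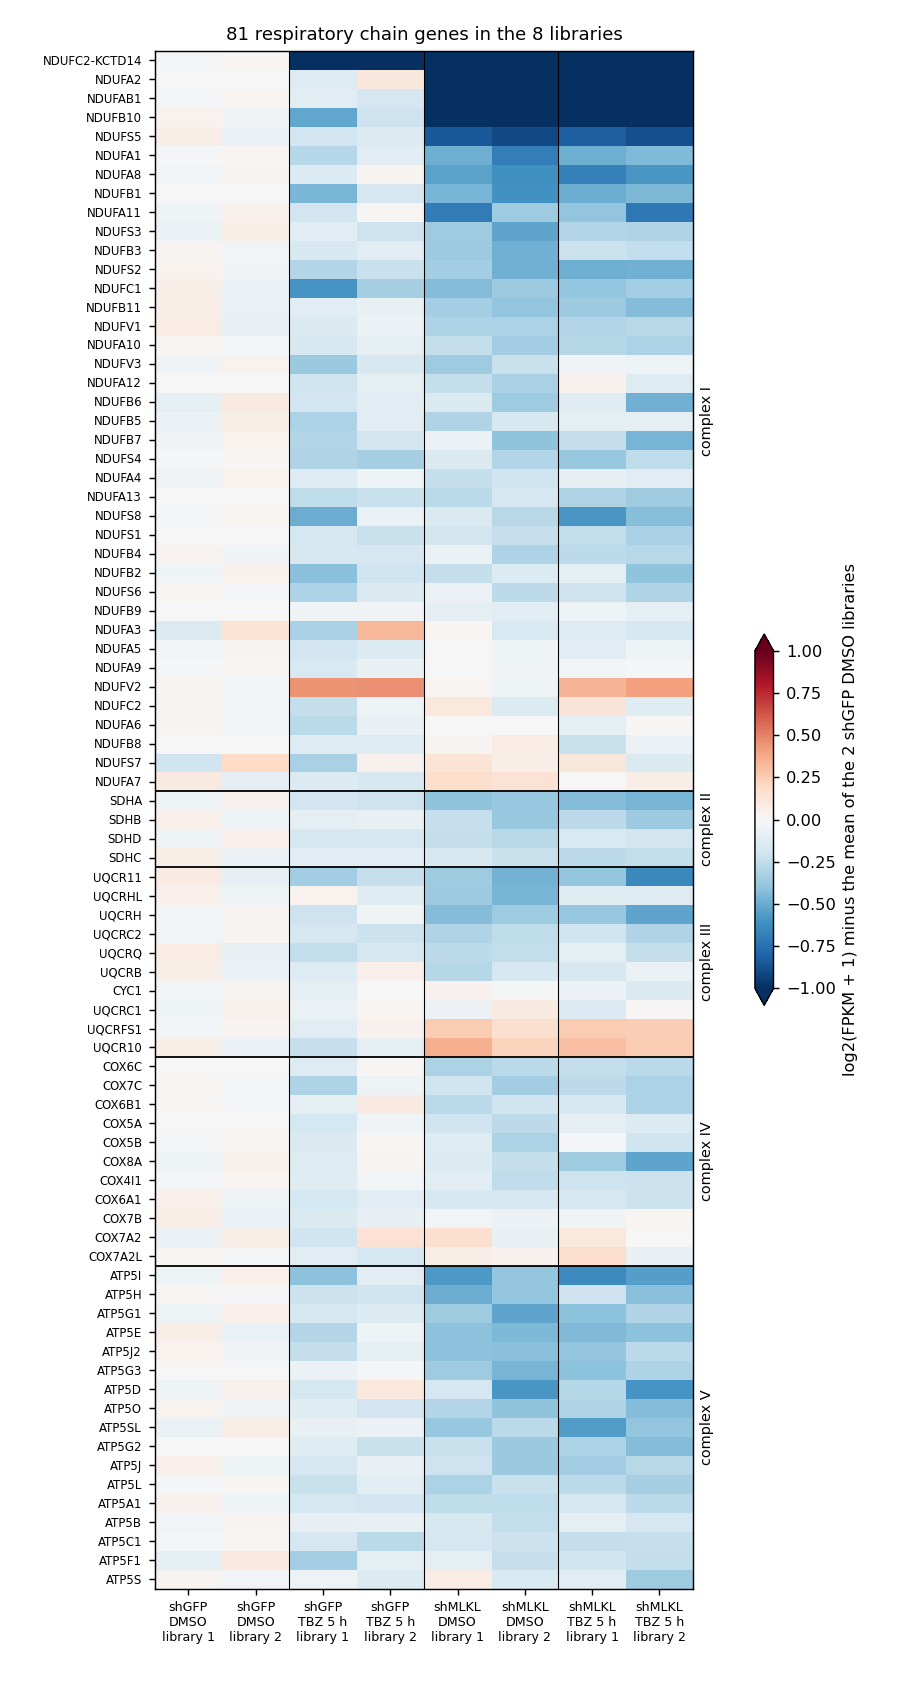
The 81 tested genes (rows, ordered within each complex by the shMLKL against shGFP difference under DMSO) in the 8 libraries (columns); colour is log2(FPKM + 1) minus the mean of the 2 shGFP DMSO libraries, and differences beyond 1 are drawn in the end colours. NDUFV2 is the row that is red in all 4 TBZ libraries, and NDUFA2, NDUFAB1, NDUFB10 and NDUFS5 are dark blue in all 4 shMLKL libraries.

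The first comparison asked how TBZ changed these genes within 5 h in cells that keep MLKL. In shGFP cells 28 of the 81 tested genes fell and 1 rose (limma on log2(FPKM + 1), Benjamini-Hochberg adjusted p below 0.05 over 10364 genes). Over all genes tested 37.3% fell and 19.1% rose, so the share that fell, 34.6%, was near that of all genes, while 1.23% rose. The median change was -0.15 on the log2 scale against -0.12 for all genes, and 79 of the 81 genes had a negative change, as did 6807 of all 10364 genes. NDUFC2-KCTD14 is among them, although it entered the test only through the group where it was above 0, and without it 27 of 80 genes fell, 15 of 38 in complex I. By complex, 16 of 39 genes of complex I fell, 2 of 4 of complex II, 3 of 10 of complex III, 1 of 11 of complex IV and 6 of 17 of complex V. Median changes ran from -0.17 for complex V and -0.16 for complex I to -0.07 for complex IV. Whether the complexes differ from each other was not tested. These counts depended on the scaling. With quantile normalization 46 of the 81 genes fell, 7 of 11 in complex IV, and the complex IV median was -0.18, against -0.17 for complex III. With each library scaled to the same sum 51 genes fell, 4 of 11 in complex IV. The shares of all genes under these scalings are not given, so whether the respiratory genes stood apart there is not shown. When the library medians were set equal, 11 of the 28 genes were still lower, against 28.2% of all genes lower and 22.6% higher. The count was 11 without shGFP DMSO library 1, 16 without shGFP DMSO library 2 and 11 without shGFP TBZ library 1. In shGFP TBZ library 2, 62 of the 81 genes were higher than in TBZ library 1, by a median of 0.09, while over all genes the median difference between these libraries was 0.

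NDUFV2 was the gene that rose. It encodes a core subunit of complex I that carries an iron-sulphur cluster in the NADH-oxidising arm, and its main transcript lies on chr18:9102628-9134343 (hg19, plus strand). NDUFV2 stood at 95.0 and 92.0 FPKM in shGFP cells under DMSO and at 128 and 129 FPKM under TBZ. In shMLKL cells it was 94.6 and 90.1 FPKM under DMSO and 119 and 125 FPKM under TBZ. All 4 TBZ libraries were above all 4 DMSO libraries. The log2 change was 0.45 (SE 0.04, limma adjusted p = 6.36e-05) in shGFP cells and 0.39 (SE 0.04, limma adjusted p = 0.00023) in shMLKL cells, and the difference between them, -0.06 (SE 0.06), did not pass (limma adjusted p = 0.48). ANKRD12, the protein-coding gene within 5000 bases of NDUFV2, went from 9.83 and 9.92 FPKM to 19.25 and 19.74 FPKM in shGFP cells and from 10.31 and 11.05 FPKM to 21.35 and 22.4 FPKM in shMLKL cells. NDUFV2-AS1, an antisense transcript that overlaps NDUFV2, has no row in the table. The part of either neighbour in the NDUFV2 values was not tested.

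Among the genes that fell in shGFP cells with at least 5 FPKM, the largest changes were those of 4 complex I genes. NDUFC1, a membrane-arm accessory subunit, went from 27.2 and 24.98 FPKM to 16.9 and 20.5 FPKM, a log2 change of -0.46 (SE 0.09, limma adjusted p = 0.00285). NDUFB10, another membrane-arm subunit, went from 33.84 and 32.01 FPKM to 22.6 and 28.4 FPKM (log2 change -0.36, limma adjusted p = 0.0175). NDUFS4, an accessory subunit whose loss in humans causes Leigh syndrome, went from 76.8 and 77.9 FPKM to 62.5 and 61.2 FPKM (log2 change -0.32, limma adjusted p = 0.00264). NDUFB1 went from 95.0 and 94.0 FPKM to 68.7 and 83.8 FPKM (log2 change -0.31, limma adjusted p = 0.0177). The DMSO and TBZ libraries did not overlap for any of the 4, which adds no support because the genes were picked as the largest falls. TBZ library 1 was the lower of its pair for NDUFC1, NDUFB10 and NDUFB1. Without either shGFP DMSO library or without shGFP TBZ library 1, NDUFB10 and NDUFB1 no longer passed, at limma adjusted p between 0.0527 and 0.0976, and without TBZ library 1 their changes were -0.21 and -0.17. Of the complex II genes, SDHA, the flavoprotein that oxidises succinate, fell from 51.1 and 54.2 FPKM to 45.9 and 45.4 FPKM (log2 change -0.20, limma adjusted p = 0.0034). SDHD, a membrane anchor, fell from 74.5 and 80.0 FPKM to 69.0 and 68.6 FPKM (log2 change -0.16, limma adjusted p = 0.011). Without shGFP DMSO library 2 SDHD did not pass (limma adjusted p = 0.0565). SDHB and SDHC did not pass.

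Fewer of the genes passed the test of the same treatment in shMLKL cells. Here 5 of the 81 genes rose and 2 fell, against 20% and 17.6% of all genes tested, and the median change was -0.01, against 0.00 for all genes. Besides NDUFV2, the genes that rose were NDUFB3, NDUFA12, NDUFV3 and UQCRHL, with log2 changes between 0.20 and 0.29. UQCRH, from which UQCRHL cannot be separated with certainty, changed by -0.05 and did not pass (limma adjusted p = 0.581). COX8A, a small subunit of complex IV, fell from 67.3 and 62.6 FPKM to 57.8 and 50.9 FPKM (log2 change -0.25, SE 0.08, limma adjusted p = 0.0326). NDUFB8 fell from 50.1 and 51.9 FPKM to 42.0 and 47.0 FPKM (log2 change -0.19, SE 0.05, limma adjusted p = 0.023). NDUFA12 did not pass without shMLKL DMSO library 2 or shMLKL TBZ library 1 (0.15 without the latter), and UQCRHL did not without shMLKL DMSO library 2. NDUFV3, whose limma adjusted p was 0.0488, did not pass without any one of the DMSO libraries of either line or of the shMLKL TBZ libraries. COX8A did not pass without any one of the 4 DMSO libraries or without shMLKL TBZ library 2, where its change was -0.17. NDUFB8 did not pass without either shMLKL DMSO library or without shMLKL TBZ library 1, where its change was -0.11. The number that rose was 1 without shMLKL DMSO library 2 and 2 without shMLKL TBZ library 1, and the number that fell was 0 when only the 2 groups compared were fitted.

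**Figure D2:**
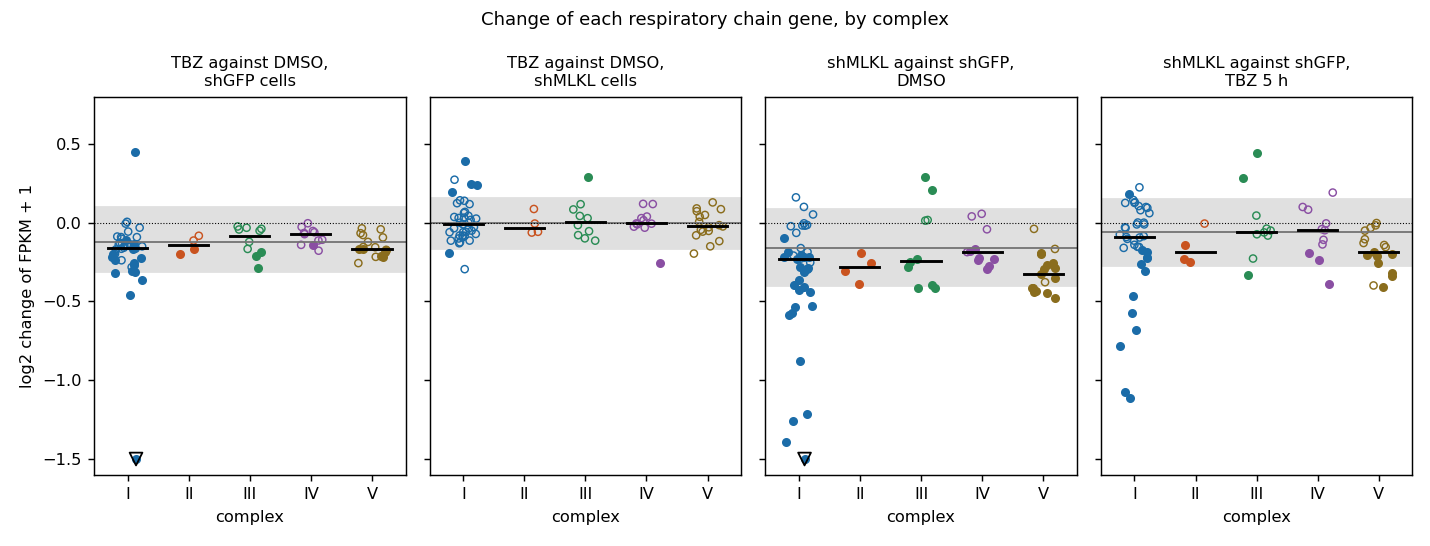
Log2 change of each tested gene (points) by complex (horizontal axis) in 4 comparisons; filled points passed the limma threshold, black bars are medians of the complex, and the grey line and band are the median and the interquartile range of all 10364 genes. NDUFC2-KCTD14, below the lower end of the axis, is drawn there with a triangle. Complex V lies lowest, with a median of -0.33, in the comparison of the lines under DMSO.

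The difference between the TBZ effects of the lines was tested directly. It passed for 10 of the 81 genes, or 9 of 80 without NDUFC2-KCTD14, all with a higher effect in shMLKL cells, against 14.6% of all genes in that direction and 7.66% in the other. No gene passed in the other direction by limma, nor had any an unadjusted p below 0.05 there. The largest difference among genes with at least 5 FPKM was that of NDUFV3, a small complex I subunit. NDUFV3 went from 7.53 and 7.95 FPKM to 5.76 and 6.80 FPKM in shGFP cells and from 5.83 and 6.48 FPKM to 7.54 and 7.43 FPKM in shMLKL cells. The effects thus had opposite signs, and their difference was 0.51 (SE 0.12, limma adjusted p = 0.0202). NDUFC1, NDUFA12, ATP5H and NDUFB3 differed by 0.50, 0.39, 0.34 and 0.33. The other 5 genes were NDUFC2-KCTD14, UQCRHL, SDHD, ATP5A1 and UQCRC2. NDUFV3 no longer passed in 6 of the 8 fits that leave out 1 library (limma adjusted p 0.0518 to 0.0717), the exceptions being those without shGFP TBZ library 2 and without shMLKL DMSO library 2. NDUFC1 no longer passed without either DMSO library of either line or either shMLKL TBZ library. NDUFA12 no longer passed without either shGFP DMSO library, shGFP TBZ library 1 or shMLKL DMSO library 2, and ATP5H without any one library except shMLKL TBZ library 2. The number of genes that passed was 4 with the library medians set equal, and 3 without shGFP DMSO library 1, without shMLKL DMSO library 2 or without shMLKL TBZ library 1. It was 5 without shGFP DMSO library 2 or shGFP TBZ library 1.

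Most of the genes passed in the comparison of the untreated lines, which asks how shMLKL cells differ from shGFP cells before TBZ. Under DMSO 56 of the 81 genes were lower in shMLKL cells and 2 were higher, against 44.8% and 18.3% of all genes tested. The median difference was -0.25, against -0.16 for all genes, and 72 of the 81 differences were negative, as were 6956 of the 10364 over all genes. Without NDUFC2-KCTD14, 55 of 80 genes were lower, 24 of 38 in complex I. By complex, 25 of 39 genes of complex I were lower, 4 of 4 of complex II, 6 of 10 of complex III, 7 of 11 of complex IV and 14 of 17 of complex V. The medians were -0.23, -0.28, -0.24, -0.19 and -0.33. The summed FPKM of the genes made up 2.56 and 2.52% of all FPKM in shGFP cells under DMSO and 2.15 and 2.08% in shMLKL cells under DMSO, with 2.18 and 2.30% in shGFP cells under TBZ and 2.12 and 2.10% in shMLKL cells under TBZ. The whole genome was shifted in the same direction. With the library medians set equal, 22 genes were lower and 9 higher, against 26.6% and 30.1% of all genes, and the median moved to -0.08, against 0.01 for all genes. With quantile normalization 51 were lower and 3 higher, against 29.8% and 27% of all genes. In bulk RNA a lower share of cells that express a gene and less of its RNA per cell cannot be told apart.

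Genes with short transcripts are common among the subunits, and the comparison was therefore also described by length. The main transcripts of the 81 genes had a median length of 843 nt, against 3018 nt for the other genes tested. Among genes under 600 nt the median difference between the lines under DMSO was -0.23 for 21 respiratory genes and -0.09 for 90 others. From 600 nt to below 1000 nt it was -0.29 for 27 and -0.19 for 467, from 1000 nt to below 2000 nt -0.25 for 21 and -0.21 for 2025, and from 2000 nt -0.22 for 12 and -0.15 for 7126. In this comparison the respiratory genes had the lower median in each class, and these medians were not tested. Other comparisons differed. Between the lines under TBZ, the medians from 1000 nt to below 2000 nt were -0.04 for respiratory genes and -0.09 for the others. Under TBZ in shGFP cells they were -0.141 and -0.143 in that class, and -0.138 and -0.148 from 600 nt to below 1000 nt. In the other classes of these 2 comparisons the respiratory genes were lower.

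The largest line differences at 5 FPKM or more were those of 4 complex I genes, which also passed under TBZ. NDUFA2, an accessory subunit of the matrix arm (chr5:140024948-140027370, hg19, minus strand), stood at 13.8 and 13.9 FPKM in shGFP cells under DMSO and at 5.69 and 3.76 FPKM in shMLKL cells, a log2 difference of -1.39 (SE 0.15, limma adjusted p = 0.000159). NDUFAB1, the mitochondrial acyl carrier protein, which also serves fatty acid and lipoic acid synthesis (chr16:23592335-23607639, hg19, minus strand), stood at 65.1 and 66.9 FPKM against 28.004 and 26.1 FPKM (log2 difference -1.26, SE 0.09, limma adjusted p = 2.34e-05). NDUFB10 (chr16:2009517-2011976, hg19, plus strand) stood at 33.84 and 32.01 FPKM against 13.9 and 13.4 FPKM (log2 difference -1.21, SE 0.10, limma adjusted p = 4.95e-05). The lines did not overlap in any library for these 3 genes or for NDUFS5, treated or not. These genes were picked as the largest differences, so this adds no support. NDUFS5 (chr1:39491967-39500308, hg19, plus strand) stood at 219 and 199 FPKM against 115 and 111 FPKM (log2 difference -0.88, SE 0.05, limma adjusted p = 9.85e-06). Under TBZ the log2 differences were -1.11 for NDUFA2, -1.08 for NDUFAB1, -0.78 for NDUFB10 and -0.68 for NDUFS5, and all passed. TMCO6, a gene that overlaps NDUFA2, stood at 2.78 and 3.13 FPKM in shGFP cells under DMSO and at 1.03 and 1.67 FPKM in shMLKL cells. Whether reads of these overlapping genes were split between them was not tested. NDUFC2-KCTD14 was listed at 3.71 and 3.85 FPKM in shGFP cells under DMSO and at 0 in the other 6 libraries, while NDUFC2, with which it shares sequence, lay between 13.2 and 17.3 FPKM throughout.

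**Figure D3:**
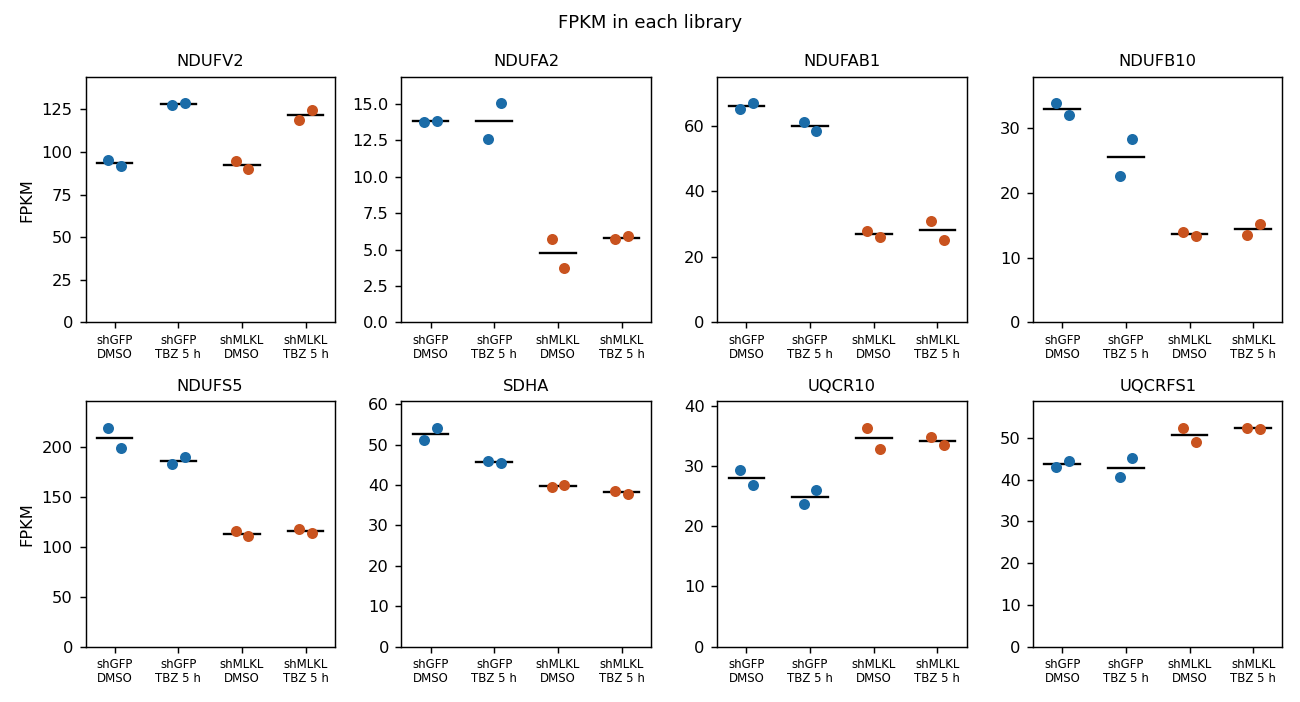
FPKM (vertical axes, starting at 0) of 8 genes in each library (points; blue shGFP, orange shMLKL), with the mean of the 2 libraries of a group as a bar. NDUFV2 is higher in all TBZ libraries of both lines, NDUFA2, NDUFAB1, NDUFB10 and NDUFS5 are lower in all shMLKL libraries, and UQCR10 and UQCRFS1 are higher in them.

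All 4 genes of complex II were lower in shMLKL cells under DMSO. SDHA stood at 51.1 and 54.2 FPKM against 39.6 and 40.1 FPKM, a log2 difference of -0.39 (SE 0.04, limma adjusted p = 0.000102). SDHB, the iron-sulphur subunit, SDHD and SDHC, the other membrane anchor, differed by -0.31, -0.26 and -0.19. SDHC did not pass without shGFP DMSO library 1 or shMLKL DMSO library 2 (limma adjusted p = 0.0686 and 0.0679). With the library medians set equal, SDHA was the one of the 4 that passed, at -0.22 (limma adjusted p = 0.00205).

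Complex III went both ways. UQCR10, a small subunit, stood at 29.3 and 26.9 FPKM in shGFP cells under DMSO and at 36.4 and 32.9 FPKM in shMLKL cells, a log2 difference of 0.29 (SE 0.07, limma adjusted p = 0.00696). UQCRFS1, the Rieske iron-sulphur protein, stood at 43.0 and 44.5 FPKM against 52.4 and 49.0 FPKM (log2 difference 0.21, SE 0.06, limma adjusted p = 0.013). These were the 2 genes that were higher, and both were higher under TBZ as well, by 0.44 and 0.28. UQCRH, the hinge protein, stood at 120 and 125 FPKM against 90.6 and 95.6 FPKM (log2 difference -0.40, limma adjusted p = 0.00174). CYC1, the cytochrome c1 subunit, was measured at 43.7 and 45.6 FPKM against 46.0 and 44.1 FPKM, with overlapping libraries (log2 difference 0.01, SE 0.05, limma adjusted p = 0.838). CYC1 was called higher when the library medians were set equal, at 0.18 (limma adjusted p = 0.0127). Leaving out shGFP DMSO library 1 or shMLKL DMSO library 1 left UQCRFS1 above the threshold, at limma adjusted p of 0.0757 and 0.0804, and leaving out shGFP DMSO library 2 did so for UQCR10, at 0.0524.

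With the values as deposited, complex IV had the smallest median difference, at -0.19. This ranking depended on the scaling. With quantile normalization the median was -0.27 for complex IV, with 7 of 11 genes lower, against -0.18 for complex I. Of its highest genes, COX7B stood at 399 and 364 FPKM in shGFP cells under DMSO and at 374 and 367 FPKM in shMLKL cells, with overlapping libraries (log2 difference -0.04, SE 0.05, limma adjusted p = 0.48). COX7C differed by -0.28 (SE 0.08, limma adjusted p = 0.021). COX4I1, the subunit that regulates the enzyme through ATP binding, stood at 164 and 168 FPKM against 154 and 139 FPKM (log2 difference -0.18, SE 0.05, limma adjusted p = 0.021). COX7A2 and COX7A2L differed by 0.04 and 0.06 and did not pass. When the library medians were set equal, COX4I1 and COX7C no longer passed, at -0.01 and -0.11, and COX7A2L was called higher, at 0.23 (limma adjusted p = 0.028). Under that scaling 0 of the 11 complex IV genes were lower and 1 was higher by limma.

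In complex I, NDUFB9, its highest gene, stood at 319.9 and 319.9 FPKM against 301 and 297 FPKM, a log2 difference of -0.10 (SE 0.03, limma adjusted p = 0.0243) that turned to 0.07 with the library medians set equal and did not pass without any one of the DMSO libraries.

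In complex V, the genes of both parts of the enzyme are given in turn, and the parts were not tested against each other. The F1 head subunits ATP5A1, ATP5B, ATP5C1 and ATP5E differed by -0.25, -0.20, -0.19 and -0.43, and all passed, whereas ATP5D differed by -0.38 and did not (limma adjusted p = 0.072). With the library medians set equal, ATP5A1, ATP5B and ATP5C1 no longer passed, at -0.08, -0.03 and -0.02, and ATP5E did, at -0.26. ATP5E stood at 603 and 548 FPKM in shGFP cells under DMSO and at 431 and 420 FPKM in shMLKL cells (SE 0.08, limma adjusted p = 0.00191). The genes ATP5G1, ATP5G2 and ATP5G3, which encode the same mature c subunit of the membrane ring, differed by -0.44, -0.30 and -0.41, and all 3 passed. Under the equal medians they differed by -0.27, -0.13 and -0.24, and ATP5G2 no longer passed (limma adjusted p = 0.11). ATP5I, a subunit of the membrane part, had the largest difference of the complex, with 189.5 and 203.6 FPKM against 131.5 and 150.4 FPKM (log2 difference -0.48, SE 0.10, limma adjusted p = 0.00483), and passed at -0.31 with the library medians set equal.

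Under TBZ the lines were closer. Here 26 of the 81 genes were lower in shMLKL cells and 3 were higher, against 31% and 20.7% of all genes tested, and the median difference was -0.10, against -0.06 for all genes. The genes that were lower numbered 11 of 39 in complex I, 3 of 4 in complex II, 1 of 10 in complex III, 3 of 11 in complex IV and 8 of 17 in complex V. The third gene that was higher, beside UQCR10 and UQCRFS1, was NDUFA7 (log2 difference 0.18, SE 0.06, limma adjusted p = 0.041), which did not pass without any one of the TBZ libraries or of the shMLKL DMSO libraries. With the library medians set equal, 13 genes were lower and 10 higher, against 22.7% and 27.3% of all genes. The number of lower genes was 13 without shGFP TBZ library 2 and 14 without shMLKL TBZ library 2. The 4 group comparisons share libraries pairwise, so their counts are not independent of each other.

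The earlier experiment has 1 library per group and allows no test, and its times and control differ, so its values are given beside the others. It was described for 79 of the 90 genes. The largest single entry took between 83.3 and 89.9% of the FPKM of each library there, and some estimates failed: NDUFA3 was listed at 0 in both TBZ libraries, ATP5J2 in both DMSO libraries, and UQCRQ in shMLKL cells under TBZ. NDUFV2 was 119 FPKM with DMSO and 175 FPKM after 4 h of TBZ in the parental line, and at 87.3 FPKM in shMLKL cells under DMSO and 106 FPKM after 12 h. In parental cells after 4 h, 7 of the 79 genes were higher and 17 lower by at least 0.32 on the log2(FPKM + 1) scale, against 20.6% and 42.5% of 10850 genes. In shMLKL cells after 12 h, 5 were higher and 21 lower by that measure, against 23% and 36%. These counts include the failed estimates: ATP5J2 is among the higher genes and NDUFA3 among the lower genes at both times. UQCRQ is among the lower genes after 12 h. The median log2 changes were -0.07 and -0.21, against -0.21 and -0.11 for all genes.

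The line difference looked otherwise in that experiment, where the comparator was the parental line. Between shMLKL and parental cells under DMSO, 16 of the 79 genes were higher and 10 lower by that measure, against 28.3% and 21.2% of all genes, and the median difference was 0.05, against 0.05 for all genes. Of the 79 genes, 45 were lower in shMLKL cells in the main experiment and higher in the earlier one, and 24 were lower in both. All genes were shifted in opposite directions too: 6956 of 10364 were lower in the main experiment, and 5860 of 10850 were higher in the earlier one. The joint count over all genes is not given, so the 45 are not shown to be particular to the respiratory genes. NDUFAB1 stood at 79.8 FPKM in parental and 126 FPKM in shMLKL cells, NDUFA2 at 57.7 and 52.2 FPKM, NDUFB10 at 100.3 and 88.5 FPKM, and NDUFS5 at 190.3 and 186 FPKM. None of the 4 showed a line difference of the size seen against shGFP cells. All 11 complex IV genes were higher in the shMLKL library, by a median of 0.20. The comparator line and the deposited form of the values differ between the experiments and cannot be told apart.

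**Figure D4:**
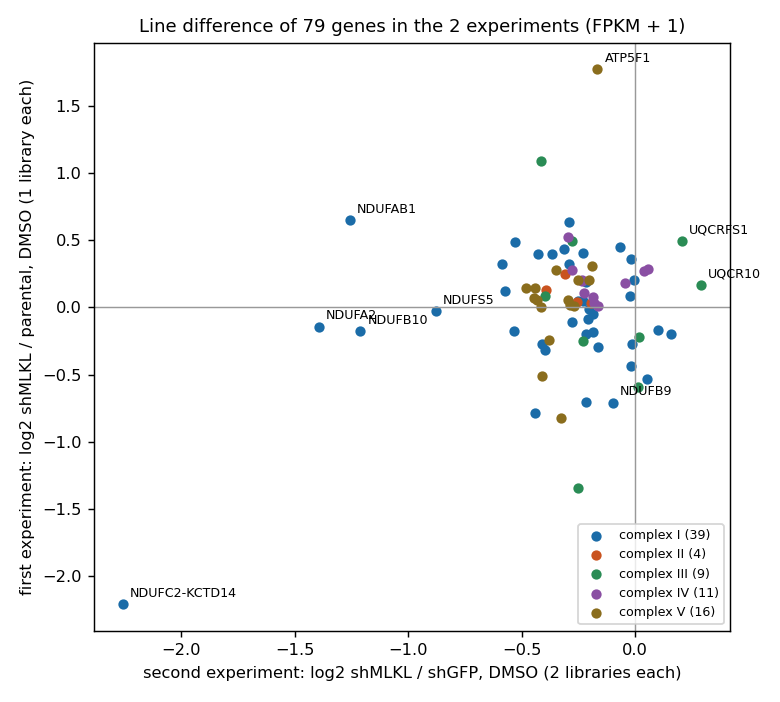
Log2 difference between untreated shMLKL cells and their comparator for 79 genes: against shGFP cells in the main (second) experiment (horizontal axis, 2 libraries a group) and against parental cells in the earlier (first) one (vertical axis, 1 library a group), coloured by complex. NDUFA2, NDUFAB1, NDUFB10 and NDUFS5 lie far to the left, between -1.39 and -0.88, and between -0.18 and 0.65 on the vertical axis.

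Other genes of mitochondrial energy metabolism were counted in the same fits, where 37.3% of all genes fell and 19.1% rose under TBZ in shGFP cells, and 44.8% were lower and 18.3% higher between the lines under DMSO. No list was tested against all genes. Of 77 mitochondrial ribosomal protein genes, 42 fell (54.5%) under TBZ in shGFP cells and 43 were lower and 3 higher in shMLKL cells under DMSO, with medians of -0.24 and -0.25. Of 48 tested assembly factors, 27 fell and 1 rose under TBZ in shGFP cells, and 30 were lower and 4 higher in shMLKL cells under DMSO (medians -0.22 and -0.37). Among them COA7, needed for complex IV assembly, went from 13.02 and 12.2 FPKM to 6.97 and 6.80 FPKM in shGFP cells (log2 change -0.79) and from 8.96 and 8.88 FPKM to 5.72 and 6.07 FPKM in shMLKL cells (log2 change -0.53). NDUFAF1, a complex I assembly factor, stood at 5.76 and 5.77 FPKM in shGFP cells under DMSO and at 2.00 and 2.21 FPKM in shMLKL cells (log2 difference -1.12, limma adjusted p = 8.84e-05). Of 30 genes for mitochondrial DNA expression, 14 fell and 1 rose under TBZ in shGFP cells, and 25 were lower in shMLKL cells under DMSO, with a median of -0.49. Of 30 tested protein import genes, 17 fell and 2 rose, and 17 were lower and 3 higher between the lines (medians -0.25 and -0.31). Of 27 genes of the tricarboxylic acid cycle and pyruvate dehydrogenase, 12 fell (44.4%, near the share of all genes) and 3 rose, and 16 were lower (59.3%) and 4 higher between the lines. Of 82 cytosolic ribosomal protein genes, 3 fell (3.66%) and 1 rose under TBZ in shGFP cells, and 28 were lower (34.1%) and 1 higher between the lines.

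Genes of the electron carriers and of the regulators of mitochondrial biogenesis moved in both directions. Of 16 tested carrier genes (cytochrome c, coenzyme Q synthesis and enzymes that feed electrons to coenzyme Q), 4 rose (25%) and 6 fell (37.5%) under TBZ in shGFP cells. COQ10B, a coenzyme Q binding protein, went from 9.52 and 10.2 FPKM to 22.9 and 22.3 FPKM in shGFP cells and from 22.1 and 22.3 FPKM to 29.5 and 27.98 FPKM in shMLKL cells. CYCS, cytochrome c itself, went from 40.9 and 41.7 FPKM to 51.6 and 53.7 FPKM in shGFP cells (log2 change 0.34, limma adjusted p = 0.000338) and from 50.9 and 52.1 FPKM to 65.4 and 61.5 FPKM in shMLKL cells (log2 change 0.29, limma adjusted p = 0.0012). Of 13 tested regulators, 4 rose (30.8%) and 5 fell (38.5%) under TBZ in shGFP cells. SIRT1, a deacetylase that acts on PGC-1α, went from 9.50 and 9.60 FPKM to 27.0 and 24.8 FPKM (log2 change 1.35). GABPB1, a subunit of the ETS factor named above, went from 17.5 and 20.9 FPKM to 32.4 and 34.0 FPKM (log2 change 0.77). MYC went from 55.3 and 56.1 FPKM to 31.1 and 30.8 FPKM (log2 change -0.83), and ESRRA, the oestrogen-related receptor α, from 9.29 and 9.59 FPKM to 5.86 and 5.29 FPKM (log2 change -0.67). All 4 regulators passed the threshold in shGFP cells.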

How the data were processed

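RNA sequencing of poly(A)-selected RNA (stranded kit, per the labels' protocols) was available for 12 libraries. For the 8 of the main experiment, 1 table of gene values was deposited; its header names no unit, and the values were read as FPKM because they are not whole, differ in sum between libraries, and the submitters' processing notes list Cufflinks 2.2.1 (with TopHat2 2.0.13, STAR 2.4.0f1 and GATK, roles not stated). The earlier 4 libraries were deposited as transcript lists with FPKM per transcript (hg19 in the submitters' processing notes), which were summed per gene. Whether reads were counted by strand is not given in the sources used here.

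Of 29437 deposited lines 3300 repeated another line exactly; 199 symbols had more than 1 distinct line, and their highest line on average was used. The 10364 genes whose mean reached 1 FPKM in any group were fitted with limma 3.58.1 (R 4.3.3) on log2(FPKM + 1), with group means, a mean-variance trend and all 8 libraries, giving 4 residual and 3.46 prior degrees of freedom. Fold changes are on that scale and understate those of low genes. Adjusted p-values (Benjamini-Hochberg) were called below 0.05 within each of 5 comparisons. Named genes were MLKL, the 4 largest rises and falls per comparison among called genes with at least 5 FPKM, the highest gene of each complex, SDHA to SDHD, CYC1, the isoform pairs and up to 4 genes from each other list; genes named outside this rule were chosen after their values were seen. The genes and lists were chosen with earlier results of these data known. The fit was tested on simulated data. Relative depth came from the steps of low FPKM values. Alternatives are given in the closing section.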

Additional observations from a re-analysis of the deposited data

Results flagged for a closer look

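The effects of TBZ differed between shMLKL and shGFP cells by limma's test of the difference for 10 genes, all with the higher effect in shMLKL cells. The log2 differences were 0.51 for NDUFV3, 0.50 for NDUFC1, 0.39 for NDUFA12, 0.34 for ATP5H, 0.33 for NDUFB3, 0.33 for UQCRHL, 0.25 for SDHD, 0.22 for ATP5A1 and 0.22 for UQCRC2. NDUFC2-KCTD14 had a fitted difference of 2.26 that rests on an entry listed at 0 in 6 of 8 libraries. The values of UQCRHL cannot be separated with certainty from those of UQCRH, whose effects differed by 0.07 and did not pass (limma adjusted p = 0.64). NDUFB3 showed opposite signs in the lines: it went from 68.0 and 65.6 FPKM to 59.7 and 61.6 FPKM in shGFP cells and from 51.6 and 47.5 FPKM to 57.4 and 56.3 FPKM in shMLKL cells. SDHD went from 74.5 and 80.0 FPKM to 69.0 and 68.6 FPKM in shGFP cells and from 65.3 and 63.6 FPKM to 69.4 and 67.7 FPKM in shMLKL cells. The adjusted p-values of the 9 other genes than NDUFC2-KCTD14 lay between 0.012 and 0.0496. The DMSO libraries enter both this difference and the comparison of the untreated lines, so the results of these comparisons are not independent.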

How the results depend on the processing

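Counts of respiratory genes that passed moved with the scaling of the libraries and with single libraries. With the library medians set equal, 11 genes fell under TBZ in shGFP cells (28 as deposited), 4 fell in shMLKL cells (2), 4 had a higher effect in shMLKL cells (10), 22 were lower and 9 higher between the lines under DMSO (56 and 2), and 13 were lower and 10 higher under TBZ (26 and 3). With quantile normalization the counts were 46 that fell in shGFP cells, 3 that rose (5 as deposited) and 6 that fell in shMLKL cells, 17 for the difference and 5 higher under TBZ. With each library scaled to the same sum they were 51, 4 that fell in shMLKL cells, 18 and 6. Without a filter on low values, 1 gene fell in shMLKL cells, 5 passed for the difference and 16 were lower under TBZ. Without the trend, 17 fell in shGFP cells, 1 fell in shMLKL cells and 5 passed for the difference. When only the groups compared were fitted, 3 rose and 0 fell in shMLKL cells. Leaving out 1 library in turn gave 11 to 31 that fell in shGFP cells, 1 to 6 that rose and 1 to 3 that fell in shMLKL cells, 3 to 10 for the difference, 45 to 57 lower and 1 to 2 higher between the lines under DMSO, and 13 to 27 lower and 2 to 5 higher under TBZ. The cause of these changes was not tested. Shares of all genes are given in the Results for part of these settings only. Without that share, a count does not show whether the respiratory genes stood apart from all genes. The correlations of the residuals of same-numbered libraries lay between -0.07 and 0.03 over 6 pairs. They do not settle whether a number marks a shared culture or day, which the labels do not say. With the replicate block the counts were 27 that fell in shGFP cells, 9 for the difference, 55 lower under DMSO, and 23 lower and 5 higher under TBZ, and 1 of the named results, the difference for ATP5H, no longer passed (limma adjusted p = 0.0572). Of 662 values of named results under 18 alternatives, 574 kept their direction and side of the threshold, 87 kept the direction but no longer passed, and 1 turned: NDUFB9 between the lines under DMSO, at 0.072 with the library medians set equal. The number of libraries, 2 in each group, limits the precision of every comparison.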
